A study of Rattus norvegicus with 4 samples.

Results

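Ankrd1, Ankrd2, Csrp2, Csrp3 and Pdlim4 encode ankyrin-repeat and LIM-domain proteins that sit at the sarcomere and the cytoskeleton of muscle fibres. Their 5 genes were read by 6 probe sets, of 14217 named genes and 31042 non-control probe sets on the array. They were chosen by symbol with their denervation and diet ratios on these same arrays already known, so all of their ratios are given as a description with no test. Ankrd1 had 2 probe sets and each other gene had 1, and no probe set shared its symbol with another gene.

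The arrays measured soleus, a slow postural muscle of the hindlimb, from male Wistar rats that were 10 weeks old at the start and are listed as 14 weeks old in the sample labels. Rats ate a control diet (a modified AIN-93G diet with corn oil in place of soybean oil) or an AIN-93G diet holding 0.05% genistein, a soy isoflavone, for 24 days, and the labels state the oil change for the control diet only. On day 14 the left sciatic nerve was cut and the right leg had sham surgery, and the muscles were taken 10 days after the operation. Sham and denervated muscle on each diet made 4 groups, and each group was 1 array of RNA pooled from 8 rats. Sham and denervated pools of a diet came from opposite legs of the same rats, and no value below has a replicate.

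The muscle ankyrin repeat proteins bind the elastic spring region of titin, the giant protein that carries passive tension in the sarcomere, and they also enter the nucleus. The LIM domain is a zinc-binding fold that joins proteins to one another at the Z-disc and at actin bundles, and several LIM proteins move or change in amount when muscle is stretched or loaded. Ankrd1 is known as an early response gene of stretched, injured and denervated muscle, and Ankrd2 and Csrp3 as genes of slow, loaded fibres.

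Start regions of 3 of the 5 members were found in the RefSeq promoter windows of the GRCr8 rat assembly, each 300 bases long, from 250 bases before to 50 bases after the gene's start. All 3 are shown, and Ankrd1 and Csrp3 had no window there. Ankrd2 had the lowest denervation ratio of the members. Csrp2 and Pdlim4 had the lowest diet ratios of the members in sham muscle, where all 5 read lower on genistein. A link between these windows and the ratios was not tested. The Ankrd2 window lies at chr1:250796169-250796468 on the + strand, that of Csrp2 at chr7:48235165-48235464 on the + strand, and that of Pdlim4 at chr10:38713610-38713909 on the - strand. Capitals mark a TATAAA match in Ankrd2 and every CG dinucleotide in Csrp2 and Pdlim4.
Ankrd2: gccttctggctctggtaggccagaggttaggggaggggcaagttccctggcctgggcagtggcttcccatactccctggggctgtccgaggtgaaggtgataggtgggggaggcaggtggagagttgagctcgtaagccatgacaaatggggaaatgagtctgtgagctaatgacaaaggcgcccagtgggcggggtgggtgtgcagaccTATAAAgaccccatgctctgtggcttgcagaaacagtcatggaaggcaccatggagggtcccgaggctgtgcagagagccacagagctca
Csrp2: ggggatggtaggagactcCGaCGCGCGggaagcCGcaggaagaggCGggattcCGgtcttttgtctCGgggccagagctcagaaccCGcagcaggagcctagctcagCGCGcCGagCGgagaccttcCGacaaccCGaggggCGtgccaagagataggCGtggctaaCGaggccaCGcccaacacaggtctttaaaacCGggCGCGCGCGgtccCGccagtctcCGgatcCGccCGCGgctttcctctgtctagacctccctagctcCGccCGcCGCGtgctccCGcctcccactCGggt
Pdlim4: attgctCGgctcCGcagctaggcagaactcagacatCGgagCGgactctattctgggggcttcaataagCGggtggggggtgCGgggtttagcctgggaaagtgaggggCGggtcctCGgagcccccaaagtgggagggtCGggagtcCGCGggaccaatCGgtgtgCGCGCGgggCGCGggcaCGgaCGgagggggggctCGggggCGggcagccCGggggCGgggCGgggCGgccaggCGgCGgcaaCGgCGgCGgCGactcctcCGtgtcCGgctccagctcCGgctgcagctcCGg

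The TATAAA letters of Ankrd2 begin 40 bases before the start, and such letters on either strand are found in 14.2% of the 33469 windows of this length. The Csrp2 and Pdlim4 windows each hold 35 CG dinucleotides and the Ankrd2 window 5, against a median of 7 over all windows. G and C make up 68.0% of the Csrp2 window, 73.7% of the Pdlim4 window and 59.3% of the Ankrd2 window. On both strands, none of the 3 windows held the MCAT motif CATTCC read by TEAD factors (14.2% of all windows). None held the E-box form CAGCTG of myogenic factors (15.1%), the CArG box of serum response factor (1.64%) or the MEF2 box (3.29%). Other E-box forms were not searched, and the Ankrd2 window holds such a form, CAGGTG. The motifs do not overlap one another in these windows, and a missing match says only that these letters are not in this stretch.

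Signals are in the arrays' own linear units, and values below 78.9 units, the 40th percentile over the 4 arrays with controls left out, were raised to that floor. All 24 member values lay above it. Ratios are given as log2, where 1 is a 2-fold difference, and a signal of a probe set is compared only with the same probe set on another array. Where a gene had several probe sets above the floor on all 4 arrays, their log2 ratios scattered around the gene's own mean (2310 genes). The SD was 0.35 for denervation on the control diet, 0.36 on genistein, 0.26 for the diet in sham muscle and 0.25 in denervated muscle. That SD leaves out scatter between pools of rats.

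The treatment field of 2 samples contradicts their titles, and groups follow the titles. Chrna1, the muscle acetylcholine receptor subunit that nerve loss induces, read 1860 and 1589 units in the sham arrays and 20550 and 16186 units in the denervated arrays of the control and genistein diets, as the titles have it. All 10 slow-fibre markers of soleus read above the floor on every array, among them Myh7, the slow myosin heavy chain. The actin 3′ to 5′ signal ratio, which climbs as RNA breaks down, was 2.08 and 2.32 in sham and 3.79 and 2.76 in denervated muscle of the control and genistein diets. The same ratio for Gapdh went the other way, at 1.24 and 1.20 in sham and 1.14 and 1.13 in denervated muscle. Whole muscle holds many cell types, so fewer cells of a type and less RNA per cell cannot be told apart in any value here.

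**Figure D1:**
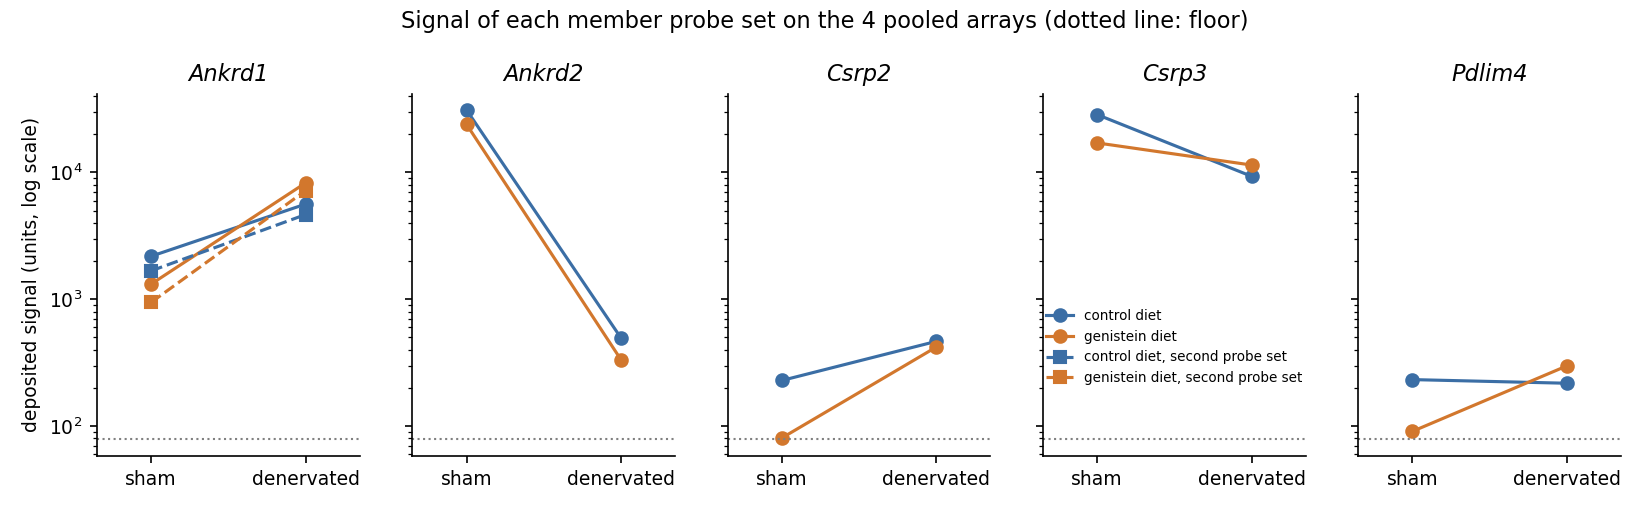
Deposited signal (units, log axis) of the 6 member probe sets on the 4 arrays, with sham and denervated muscle on the x axis, the diets in colour and a dotted line at the floor of 78.9 units. Ankrd1 climbs and Ankrd2 drops from sham to denervated muscle on both diets, and Csrp2 and Pdlim4 start nearest the floor in the genistein sham array.

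The first question is how these genes differed between denervated and sham muscle. They split: Ankrd1 and Csrp2 read higher after nerve loss on both diets, Ankrd2 and Csrp3 read lower on both, and Pdlim4 read higher on genistein only. On the control diet 2 of the 5 members passed 2-fold upward and 2 passed it downward, as did 5.04% and 7.63% of 10755 genes. On genistein 3 members passed it upward and 1 downward, against 4.96% and 6.57% of 10810 genes. The median of the members was -0.10 on the control diet and 1.71 on genistein, beside all-gene medians of 0.00 and 0.02. These counts describe genes picked for their ratios and are not set against the background as a finding.

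Ankrd1, the cardiac ankyrin repeat protein CARP, read 2187 units in control sham, 5635 in control denervated, 1320 in genistein sham and 8282 in genistein denervated muscle. Both denervated arrays lay above both sham arrays. Its denervation ratio was 1.37 on the control diet, a 2.58-fold higher signal, and 2.65 with genistein, 6.27-fold higher. A second probe set read 1677, 4662, 947 and 7197 units in the same order of arrays, which gave 1.47 and 2.93. The probe sets thus differed by less than the scatter SD in each diet.

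Ankrd2, the relative of Ankrd1 that is abundant in slow fibres, read 31109 units in control sham, 496 in control denervated, 23942 in genistein sham and 334 in genistein denervated muscle. The sham arrays lay far above the denervated arrays, with ratios of -5.97 (62.7-fold lower) and -6.16 (71.7-fold lower). In each diet only 1 other gene had a ratio as low. That gene was Perm1, a muscle regulator of oxidative metabolism. Ankrd1 and Ankrd2, which share the titin spring as a binding place, thus went in opposite directions on both diets.

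Csrp3, the muscle LIM protein of the Z-disc, read 28593 units in control sham, 9327 in control denervated, 17102 in genistein sham and 11444 in genistein denervated muscle. Both sham arrays lay above both denervated arrays, but the genistein pair were closer together. Its ratio was -1.62 on the control diet (3.07-fold lower) and -0.58 with genistein (1.49-fold lower). Under quantile normalization and spike-in scaling the genistein ratio was -0.10, within the scatter SD of 0. Ankrd2 and Csrp3 were lower alongside the slow-fibre markers, of which 10 of 10 on the control diet and 9 of 10 on genistein lay below 0. Of all genes, 50.2% and 48.3% lay below 0. By the brightest probe set of each gene, the medians of those markers were -1.04 and -0.99. Their summed signal was 344078 and 315625 units in sham and 162541 and 132962 in denervated muscle of the control and genistein diets. A dimmer probe set of Myh7 lay lower (-2.05 and -2.67, beside -0.73 and -0.95), and those of Tpm3 lay nearer 0. The part of slow-fibre content in the ratios of Ankrd2 and Csrp3 was not tested.

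Csrp2, a LIM protein of the same family known from smooth muscle and developing muscle, read 229 units in control sham, 466 in control denervated, 80.7 in genistein sham and 420 in genistein denervated muscle. The denervated arrays were alike and above the sham arrays, which differed from each other. Its ratio was 1.02 (2.03-fold) on the control diet, just past 2-fold and 0.97 under quantile normalization, and 2.38 (5.21-fold) on genistein. The sham genistein value of 80.7 lies next to the floor, so the genistein ratio rests on a dim signal: with a floor of 217.5 units it was 0.95.

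Pdlim4, a PDZ and LIM protein that binds alpha-actinin and actin bundles, read 233 units in control sham, 218 in control denervated, 91.0 in genistein sham and 299 in genistein denervated muscle. The genistein sham array stood below the other arrays. The denervation ratio was -0.10 on the control diet, or 0.27 under spike-in scaling, and 1.71 (3.28-fold) on genistein. With the floor at 217.5 units the genistein ratio was 0.46.

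**Figure D2:**
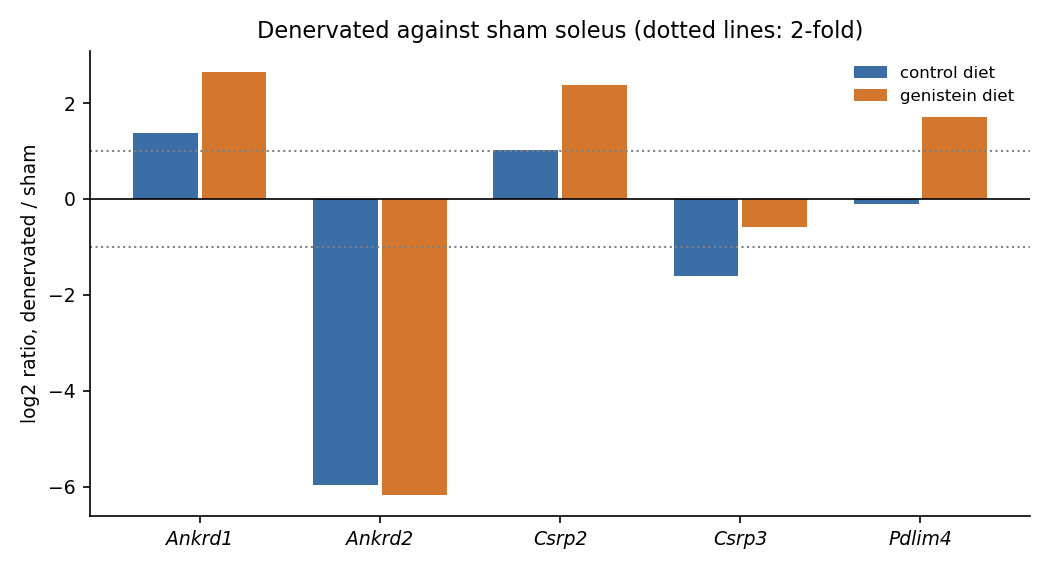
Log2 ratio of denervated to sham signal for each member (y axis), with a bar for each diet and dotted lines at 2-fold. Ankrd2 reaches -5.97 and -6.16, and Pdlim4 differs most between the diets, at -0.10 on the control diet and 1.71 on genistein.

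Relatives and partners of these proteins were mostly lower in denervated muscle or little different. Ankrd23, the third muscle ankyrin repeat protein, read 14249 units in control sham, 11215 in control denervated, 13491 in genistein sham and 10888 in genistein denervated muscle. Its ratios of -0.35 and -0.31 lay between the large ratios of Ankrd1 and Ankrd2. Of 8 measured genes of the titin and ankyrin partner list, Palld (palladin, an actin-bundling partner; -1.09 and -1.14) and Capn3 (a protease held on titin; -1.72 and -1.50) were at least 2-fold lower on both diets. Trim63, the ubiquitin ligase MuRF1 of the titin M-line, was 2-fold or more higher on both (1.22 and 1.19). Smpx, a small muscle protein of the costamere, was at -0.86 and -0.75. Titin itself (Ttn) had ratios of -0.37 and -0.57, and the list medians were -0.40 and -0.60.

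None of the 21 other LIM protein genes passed 2-fold upward on either diet, while 8 passed it downward with the control diet and 7 with genistein. Of all genes, 5.04% and 4.96% passed it upward and 7.63% and 6.57% downward on the control and genistein diets. The list medians were -0.56 and -0.61. The 7 that were lower on both diets were Fhl2 (-3.06 and -2.43), Lmcd1 (-2.63 and -2.84), Fhl3 (-2.20 and -2.30), Ldb3 (-2.01 and -1.86), Pdlim1 (-1.88 and -1.60), Ablim1 (-1.70 and -1.52) and Pdlim5 (-1.41 and -1.39). Fhl2 and Fhl3 are four-and-a-half LIM proteins, and Ldb3, Pdlim1 and Pdlim5 hold both PDZ and LIM domains, as Pdlim4 does. Lims1 was lower past 2-fold on the control diet (-1.28) and at -0.89 on genistein. Pdlim2 (0.73 and 0.12), Pdlim3 (0.04 and 0.33) and Zyx, zyxin of focal adhesions (0.01 and -0.26), had the highest control diet ratios of that list. Csrp1, the remaining family member of Csrp2 and Csrp3, read 760, 644, 820 and 925 units in control sham, control denervated, genistein sham and genistein denervated muscle, with ratios of -0.24 and 0.17. The probe sets of Ablim1 ran from -1.85 to -0.10 on the control diet. The value of -0.10 came from a dim probe set that read 84.3 units on the sham array. Its denervated signal, 35.3 units, was raised to the floor, so that ratio cannot show whether the probe sets disagree. A control diet ratio of 0 came from 3 of the 4 Pdlim5 probe sets and 1 of the 6 of Ldb3, all at the floor.

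**Figure D3:**
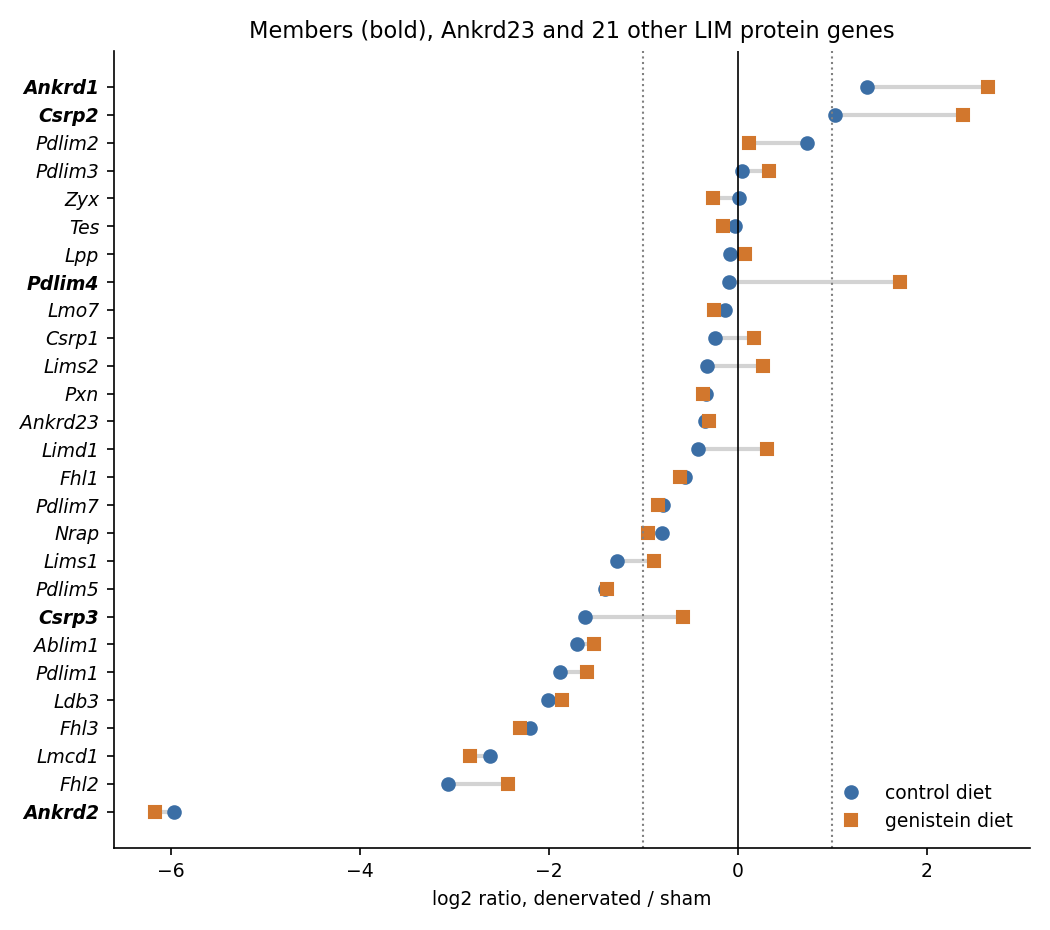
Log2 ratio of denervated to sham signal (x axis) of the members in bold, Ankrd23 and 21 other LIM protein genes, with circles for the control diet, squares for genistein and dotted lines at 2-fold. Ankrd1 and Csrp2 lie at the high end on both diets, the other LIM genes lie between -3.06 and 0.73, and Ankrd2 lies at the low end.

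Strain-bearing Z-disc and costamere genes read lower as a group: 9 of 20 measured genes passed 2-fold downward on each diet and 1 passed it upward. Their medians were -0.88 and -0.79. The shares of all genes were 7.63% and 6.57% downward and 5.04% and 4.96% upward on the control and genistein diets. The lowest on the control diet were Myoz3 (-3.92 and -3.91), Itgb1bp2 (-3.65 and -3.19) and Xirp1 (-1.74 and -1.40). Myoz3 is a calcineurin-binding Z-disc protein, Itgb1bp2 the integrin-binding chaperone melusin, and Xirp1 a repeat protein of damaged myofibrils and junctions. A second Myoz3 probe set gave -1.07 and -0.65, but its denervated values of 11.3 and 9.7 units were raised to the floor. The gene that was higher was Actn3, the fast alpha-actinin (5.12 and 2.92). Itgb1, the beta 1 integrin, was at 0.17 and 0.21, and at -0.07 and 0.32 on a second probe set. The counts rest on the brightest probe set of each gene. Synpo2 was at -0.58 and -0.72 by that measure and at -0.67 and -0.87 on a second probe set. A dimmer one gave 0.88 and 1.27.

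Genes of the YAP and serum response factor pathways, which relay mechanical load to transcription and list Ankrd1 among their common targets, had no common direction. Past 2-fold, 2 of 19 genes were higher and 3 lower on the control diet, and 0 higher and 2 lower with genistein. Over all genes, 5.04% were higher and 7.63% lower on the control diet, and 4.96% and 6.57% with genistein. The list medians were -0.27 and 0.05. Vgll2, a muscle TEAD cofactor (-3.09 and -3.39), and Abra, an actin-binding activator of serum response factor (-1.62 and -1.65), were lower on both. Ccn2 (-1.59 and -0.78) and Ccn1 (0.87 and 0.37), both secreted targets of YAP, were on opposite sides of 0. Amotl2 (1.09 and 0.94) and Vgll4 (1.07 and 0.30), inhibitors of YAP or TEAD, were the genes past 2-fold upward on the control diet. Nppb was below the floor on all 4 arrays.

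The second question is how the diet related to these genes in sham muscle. All 5 members read lower on genistein. Their ratios were -1.51 for Csrp2 (2.84-fold lower), -1.36 for Pdlim4 (2.56-fold lower), -0.74 for Csrp3, -0.73 for Ankrd1 (-0.82 on its second probe set) and -0.38 for Ankrd2. Their median was -0.74 beside 0.00 for all genes, of which 49.5% were below 0. Past 2-fold, 2 of 5 members were lower and 0 higher, where 0.287% of 10819 genes were lower and 0.324% higher. The ratios of Csrp3, Ankrd1 and Ankrd2 exceeded the scatter SD of 0.26 but not 2-fold.

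Csrp2 and Pdlim4 had the second and the fifth lowest ratio of all genes in this comparison, and both rested on dim signals. Among the 3927 genes that read between 114.6 and 465.6 units in control sham muscle, within 2-fold of these genes, 0.713% were at least 2-fold lower on genistein, and their ratios had an SD of 0.34. With the floor at 217.5 units the ratios became -0.08 for Csrp2 and -0.10 for Pdlim4, since both genistein values then lay at the floor. The list medians in the same comparison were -0.09 for the titin and ankyrin partners, -0.10 for the other LIM proteins, -0.10 for the Z-disc and costamere genes and 0.02 for the YAP and serum response factor genes. By brightest probe set, the ratios over the genes of those lists ran from -0.67 for Fhl2 to 1.25 for Actn3. By that measure only Actn3 passed 2-fold, followed at the high end by Ccn1 (0.75) and Egr1, an immediate early transcription factor (0.59). Dimmer probe sets lay lower than Fhl2 for Pdlim7 (-1.05), Ablim1 (-0.89) and Srf (-0.78). That of Pdlim7 passed 2-fold, at 230.5 units in control sham and 111.7 in genistein sham muscle.

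In denervated muscle the diet ratios of the members had mixed signs, and they lay nearer 0 than in sham muscle for each member but Ankrd2. Ankrd1 (0.56, and 0.63 on its second probe set), Pdlim4 (0.46) and Csrp3 (0.30) read higher on genistein, Ankrd2 (-0.57) read lower, and Csrp2 (-0.15) differed by less than the scatter SD. No member passed 2-fold, where 1.02% of 10479 genes were higher and 0.124% lower. The members' median was 0.30 beside 0.00 for all genes.

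**Figure D4:**
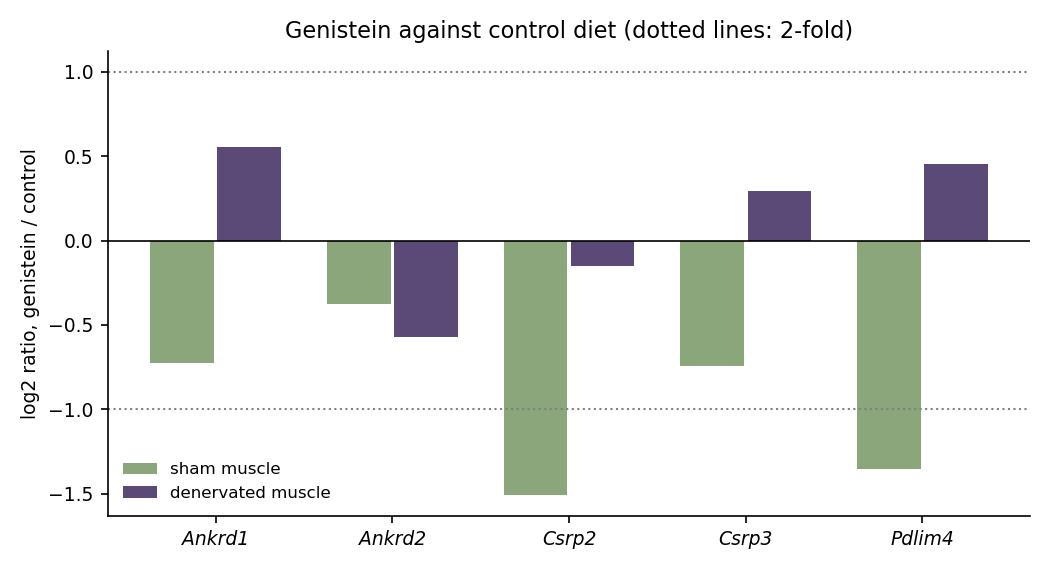
Log2 ratio of genistein to control diet signal for each member (y axis), with a bar for sham and a bar for denervated muscle and dotted lines at 2-fold. All 5 sham bars lie below 0, from -0.38 to -1.51, while the denervated bars lie between -0.57 and 0.56.

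The diet and the operation were then combined as the denervation ratio on genistein minus that on the control diet. This equals the diet ratio in denervated muscle minus that in sham muscle, so it adds no array of its own. It was 1.81 for Pdlim4, 1.36 for Csrp2, 1.28 for Ankrd1 (1.45 on its second probe set), 1.04 for Csrp3 and -0.19 for Ankrd2. Thus 4 of 5 members lay at or above 1 and 0 at or below -1, against 1.88% and 0.708% of 11151 genes. With the floor at 217.5 units the count at or above 1 was 2, as Csrp2 turned to -0.07 and Pdlim4 came to 0.55, and under median scaling it was 3, with Csrp3 at 0.92. For Csrp2 the sham diet ratio (-1.51) was larger in size than the difference itself, and the denervated ratio (-0.15) reduced it. For Ankrd1, Csrp3 and Pdlim4 the genistein array was the lower in sham muscle and the higher in denervated muscle, an ordering that 22.5% of 10046 genes share. Ankrd2 kept the same order of diets in both muscles.

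Markers of other cells also differed between the denervated arrays. All 10 fibroblast and tendon markers had a higher denervation ratio on genistein than on the control diet, with a median difference of 0.70, and their summed signal was 59108 and 60517 units in sham and 26488 and 44149 in denervated muscle of the control and genistein diets. The difference was above 0 for 8 of 9 measured smooth muscle and pericyte markers (median 0.34; summed signal 4106 and 4104 units in sham, 2373 and 3007 in denervated muscle), while Cnn1 was below the floor on all 4 arrays. It was above 0 for 5 of 6 leukocyte markers (median 0.68; 4454 and 4638 units in sham, 3833 and 5747 in denervated muscle), 4 of 5 endothelial markers (median 0.64; 3113 and 2950, then 1426 and 2081 units) and 3 of 3 adipocyte markers (median 0.90; 6366 and 6046, then 3085 and 4568 units). S100b, the only Schwann cell marker above the floor, had a difference of 0.81, and Sox10 was below the floor on all 4 arrays. Each marker was read by its brightest probe set. Among dimmer probe sets above the floor on every array, only that of the leukocyte marker Ptprc turned direction. Its denervation ratios were -0.14 on the control diet and -0.32 on genistein. For Col1a2 a dimmer probe set gave -1.69 and -1.64, beside -1.73 and -0.84 on the brightest. Of all 11151 genes, 49.5% had a difference above 0, with a median of -0.004. In sham muscle, where the members read lower on genistein, the medians of the diet ratio were 0.05 for fibroblast and tendon, 0.03 for smooth muscle and pericyte, -0.08 for endothelial and 0.12 for leukocyte markers. The slow-fibre markers had a median of -0.15, with all 10 below 0, and the part of any of these cells or of RNA integrity in the members' ratios was not tested.

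Genes with the most similar pattern were sought among 10515 genes above the floor on at least 2 arrays, by the root mean square (RMS) difference of log2 signals centred over the 4 arrays. For Ankrd1 they were Bcl3, a nuclear IκB protein (RMS difference 0.11), Pvr, the poliovirus receptor (0.17), and Copz2, a coatomer subunit (0.19). For Ankrd2 they were Perm1 (0.20), the slow tropomyosin Tpm3 (0.68) and the lactate transporter Slc16a3 (0.69), so only Perm1 was close. Tpm3 had 12 probe sets, and the brightest, used here, had a control diet denervation ratio of -4.37. The others ran from -3.53 to -0.03. Those of Csrp2 were Rhbdf2, an inactive rhomboid protein (0.17), Sfmbt1 (0.25) and Fntb, a farnesyltransferase subunit (0.29). Those of Csrp3 were Fxyd7 (0.12), Ankrd37 (0.12) and Fshb (0.13). Those of Pdlim4 were Chst14, a dermatan sulfotransferase (0.19), Scarf2 (0.19) and Cadm1, a cell adhesion molecule (0.21). A likeness over 4 arrays is a description, and Bcl3, Fxyd7, Fshb and Scarf2 were below the floor on at least 1 array.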

How the data were processed

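Values are the authors' linear intensity for every probe set on an array, made with GCOS 1.1 per the submitters' processing notes. The summary algorithm and scaling target are not given in the sources used here. After removal of 2% of probe sets at each end each array's mean signal was 500.2, and the deposited scaling was kept. With 57 controls set aside, 20826 probe sets had 1 gene symbol, 436 several and 9780 none, per the platform annotation, and 20758 matched GRCr8 gene identifiers. A gene was represented by its brightest probe set. Genes at the floor on every array of a comparison were left out of it. Each group being 1 array, there is no test and no error between replicates, and the number of arrays limits the precision. Ratios and counts at 2-fold were computed with Python 3.11.15 and pandas 2.3.3, and the code was tested on simulated data. Alternatives were 3 other scalings (median, quantile, and hybridisation spike-ins), no floor or floors at the 20th and 60th percentiles, and the mean of probe sets. Named genes were all members, list members passing 2-fold on both diets (ankyrin and LIM lists), up to 3 furthest from 0 per list and direction, and the 3 nearest patterns per member. Ankrd23, Ttn, Csrp1, Lims1, Pdlim7, Srf, Egr1, Pln, Myh7, Ptprc and Synpo2, outside that rule, were added after their values were seen. Nppb, Cnn1 and Sox10 were named only as below the floor. The members and lists were chosen with earlier results of these data known. The satellite cell markers sought, Pax7 and Myf5, had no probe set annotated to them alone, so none was read.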

Additional observations from a re-analysis of the deposited data

Results flagged for a closer look

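The following 4 results have opposite signs in the groups they compare, each on 1 array per group, and none of these differences was tested. The denervation ratio of Pdlim4 was -0.10 on the control diet and 1.71 on genistein, a difference of 1.81, and its sign on the control diet turned under spike-in scaling. Its diet ratio was -1.36 in sham and 0.46 in denervated muscle, which is the same difference of 1.81. The diet ratio of Ankrd1 was -0.73 in sham and 0.56 in denervated muscle, a difference of 1.28. The diet ratio of Csrp3 was -0.74 in sham and 0.30 in denervated muscle, a difference of 1.04.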

How the results depend on the processing

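Under 7 alternatives, the 25 member ratios and differences gave 175 values, of which 173 kept their sign and 167 their side of 2-fold. With the floor at the 60th percentile (217.5 units), 2 members were at least 2-fold changed by denervation on genistein, 0 by the diet in sham muscle, and 2 had a difference between the denervation ratios of at least 1; the difference for Csrp2 reversed to -0.0733, because its genistein sham value then lay at the floor. The other sign change was Pdlim4 in denervation on the control diet (0.27 under spike-in scaling). Csrp3 had a difference of 0.92 under median scaling. Spike-in scaling moved the median denervation ratio of all genes to 0.35 and 0.48, and the share of higher genes among those past 2-fold from 39.8% and 43.0% to 76.3% and 87.2% on the control and genistein diets. Median scaling moved the median diet ratio in denervated muscle to -0.13, and that share from 89.2% to 69.3% (79.1% under quantile normalization); among genes whose denervation ratios differed between diets it moved from 72.7% to 52.9% (61.5% under quantile normalization, 83.4% under spike-in scaling). No replicate could be left out with 1 array per group. No paired analysis was possible because each group is 1 pool. Signals near the floor limit Csrp2 and Pdlim4.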

Other observations

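Pln, phospholamban, a brake on the slow calcium pump, was singled out after its values were seen. It read 504 units in control sham, 246 in control denervated, 291 in genistein sham and 369 in genistein denervated muscle, so that its denervation ratio was -1.04 on the control diet and 0.34 on genistein. A second probe set gave -0.34 and 0.71, and the remaining probe set lay at the floor. The difference of 1.38 between the diets was not tested.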
